A study of Mus musculus with 24 samples.

Results

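The cytosolic heat shock proteins described here are the products of 8 genes, *Hspa1a*, *Hspa1b*, *Hspa8*, *Hsph1*, *Dnajb1*, *Hspb1*, *Hsp90aa1* and *Hsp90ab1*. They were taken by symbol from the 24411 genes counted in 24 mouse liver RNA-seq libraries, and all 8 had reads in every library. The study asked whether the ploidy of hepatocytes bears on liver injury after an overdose of acetaminophen (APAP), and used deletion of the atypical E2F genes *E2f7* and *E2f8*, which yields mostly diploid hepatocytes when it is lifelong and leaves ploidy as it was when it is made in adults. Liver-specific knockout (LKO) mice carried Alb-Cre, which acts in the liver from before adulthood, floxed *E2f7* and *E2f8* alleles and the R26R mTmG reporter on a mixed background that was mostly FVB, and their controls were littermates without Cre. Hepatocyte-specific knockout (HKO) mice were floxed animals that received AAV8-TBG-Cre at 2 months of age, and their controls received AAV8-TBG-Null, so both HKO groups were exposed to a virus and both LKO-cohort groups were not. All mice were males of 2.5 months and had been fasted for 16 h before APAP or, at 0 h, before collection. Hours after APAP thus cannot be told apart from hours since the fast. At 0 h, without APAP, single livers were sequenced from 4 LKO mice, 4 LKO-cohort controls, 3 HKO mice and 3 HKO-cohort controls. At 12, 24, 48, 72 and 96 h after 300 mg/kg APAP there was 1 library per genotype of the LKO cohort, each made from the pooled RNA of 3 mice, so a pool gives a level but no spread.

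Heat shock proteins are chaperones that keep other proteins folded and soluble. *Hspa1a* and *Hspa1b* encode the stress-inducible HSP70, whose transcription rises sharply when heat shock factor 1 (HSF1) binds heat shock elements in their promoters, and *Hspa8* encodes HSC70, the form that cells make at all times. *Dnajb1* encodes HSP40, which delivers clients to HSP70, *Hsph1* encodes HSP105, a nucleotide exchange factor of HSP70, *Hspb1* encodes the small heat shock protein HSP27, and *Hsp90aa1* and *Hsp90ab1* encode the inducible and the constitutive form of cytosolic HSP90. In the liver, APAP is converted to a reactive metabolite that binds hepatocyte proteins and causes oxidative stress.

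Between 12665686 and 19499897 reads fell on genes per library, and 3 reads, the limit of detection used here, were worth 0.154 to 0.237 CPM (the count scaled to the number of reads on genes, with TMM factors). The lowest count of any of the 8 genes in any library was 18, for *Hspa1a* in the LKO pool at 48 h. The 6 hepatocyte markers were detected in every library, with summed levels of 45718 to 127258 CPM. The targeted gene *E2f8* had 11.8 to 18.9 CPM in the 4 LKO-cohort controls and 18.0 to 34.1 CPM in the 4 libraries labelled LKO. It had 14.8 to 26.3 CPM in the HKO-cohort controls and 30.6 to 83.4 CPM in the libraries labelled HKO. After APAP, *E2f8* was higher in the pools labelled LKO (14.7 to 46.4 CPM) than in the control pools (4.18 to 13.6 CPM), by 1.53 on the log2 scale over 12 to 96 h (adjusted p = 0.0237 by edgeR). *E2f7* stayed at or below 1.33 CPM in all 14 mice. These counts cover the whole gene, including exons outside the deleted part, so they do not check the labels, which give all directions below. In whole-liver RNA, fewer cells of a type and less RNA per cell cannot be told apart.

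The 8 genes differed widely in level at 0 h. Per kilobase of annotated exon, the medians over the 14 mice were 431 CPM for *Hsp90ab1*, 306 CPM for *Hspa8*, 81.5 CPM for *Hsp90aa1*, 41.1 CPM for *Hspb1*, 30.5 CPM for *Hspa1b*, 20.1 CPM for *Hsph1*, 14.7 CPM for *Dnajb1* and 4.65 CPM for *Hspa1a*. *Hsp90ab1* ranked first, *Hspa8* next and *Hspa1a* last in each of the 14 mice, while the ranges of *Hspb1* (21.8 to 93.4 CPM per kilobase), *Hspa1b* (9.85 to 53.2) and *Hsph1* (10.6 to 50.5) overlapped. The levels of the inducible HSP70 genes are uncertain, since *Hspa1a* (chromosome 17 of GRCm38, 34969190 to 34972156, minus strand) and *Hspa1b* (chromosome 17, 34956436 to 34959238, minus strand) are near-identical neighbors. Of all stretches of 75 bases in the *Hspa1a* transcript, 52.7% also occur in that of *Hspa1b*, and only uniquely mapped reads were counted. *Hspa1a* also shares 564 of its 2967 exon bases with exons of *Gm20481* on the opposite strand. The counts disregard strand and assign no read that overlaps 2 genes, so the level of *Hspa1a*, its last rank included, can be understated.

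**Figure D1:**
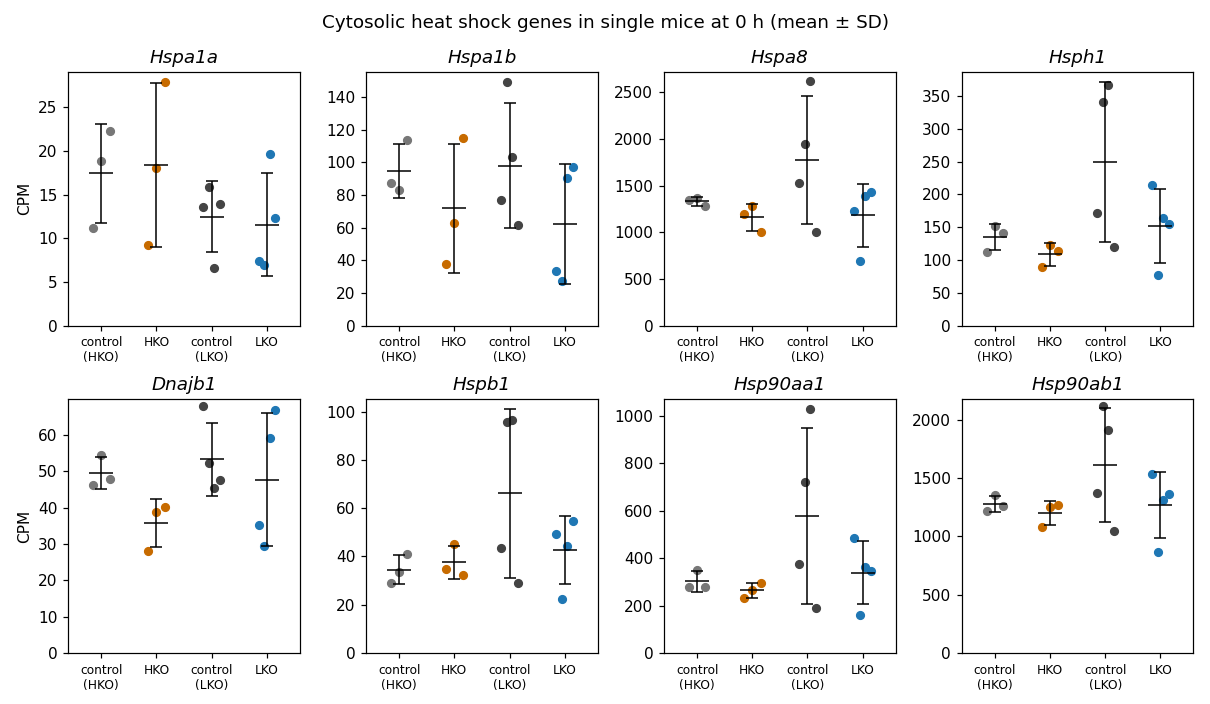
Level of each gene in CPM (vertical axes, from 0) in single mice at 0 h, by group, with each mouse as a point and the mean ± SD as bars; "control (HKO)" and "control (LKO)" are the controls of the 2 cohorts. *Hsp90aa1* lies between 189 and 1028 CPM in the LKO-cohort controls and between 277 and 351 CPM in the HKO-cohort controls, and the groups of each cohort overlap for every gene except *Dnajb1* in the HKO cohort.

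The first question at 0 h is whether the knockouts alone changed these chaperones. None of the 8 genes was called in LKO against control livers by edgeR's quasi-likelihood test (a call requires both an adjusted p below 0.05 and a change of 1.5-fold or more), where 0 of 12426 genes were called (0%). None of the 8 had an unadjusted p under 0.05 (352 of all genes did), and DESeq2 called none of the 8 and 3 genes in all. The log2 fold changes of the 8 lay between −0.78 for *Hsp90aa1* and −0.11 for *Hspa1a*, with a median of −0.61 against −0.0012 over all genes tested, and each adjusted p was 0.999. All 8 were thus lower on average in LKO livers, but none passed the test, and the values of the groups overlapped for each gene (1.75% of all genes did not overlap). *Hsp90aa1* (chromosome 12, 110690605 to 110702728) had 376, 722, 1028 and 189 CPM in the controls and 483, 161, 363 and 344 CPM in LKO mice. The controls held both the highest value and one below 3 of the 4 LKO mice. *Hsph1* (chromosome 5, 149614287 to 149636376) showed the same spread, with 172, 340, 367 and 120 CPM in controls and 214, 77.1, 164 and 156 CPM in LKO mice.

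In HKO against control livers none of the 8 was called either, where 0.96% of 12397 genes were, and DESeq2 also called none of them. *Dnajb1* (chromosome 8, 83608193 to 83612653) was the only member with an unadjusted p under 0.05, as had 1598 of all 12397 genes. It had 46.4, 54.6 and 47.9 CPM in the 3 controls and 28.1, 38.9 and 40.2 CPM in the 3 HKO mice. The groups did not overlap, as was so for 18% of all genes tested there. By edgeR the difference was −0.47 on the log2 scale, with a standard error of 0.15 and an adjusted p of 0.205, and missed the threshold. *Hspa1b* had 87.6, 83.2 and 114 CPM in controls and 37.9, 62.8 and 115 CPM in HKO mice, so 2 HKO mice lay below all controls and 1 above them. Over the other 7 genes the log2 fold change ranged from −0.40 for *Hspa1b* to 0.12 for *Hspb1*, with adjusted p-values of 0.436 to 0.961. In the same comparison, 1 of 12 time-of-day genes rose (*Arntl*) and 6 fell (*Usp2*, *Dbp* and *Per3* by most), and their part in the *Dnajb1* values was not tested. The LKO effect minus the HKO effect lay between −0.75 for *Hspb1* and 0.31 for *Dnajb1* on the log2 scale, and none of the 8 differences passed the test by edgeR. There 0 of 12945 genes were called (0%), 579 genes but no member had an unadjusted p under 0.05, and DESeq2 called 21 genes and no member.

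Several of the 8 genes varied together between mice at 0 h, mainly in the LKO cohort. After each mouse was set against its group mean on the log2 scale, *Hspa8*, *Hsph1*, *Hspb1*, *Hsp90aa1* and *Hsp90ab1* had Pearson r between 0.858 and 0.981 in their 10 pairs over the 14 mice. Within cohorts, r lay between 0.902 and 0.986 in the 8 LKO-cohort mice and between −0.293 (*Hspa8* with *Hsp90aa1*) and 0.914 in the 6 HKO-cohort mice, where 4 of the 10 pairs exceeded 0.5. For *Hsph1* and *Hsp90ab1*, r was 0.981, Spearman's rho was 0.943, and r was 0.956 without the 2 mice farthest from the median of *Hsph1*. For the inducible HSP70 genes and their HSP40 partner, r was 0.716 for *Hspa1a* and *Dnajb1* and 0.737 for *Hspa1b* and *Dnajb1*. With the mean of the 5 genes above, r was 0.0193 for *Hspa1a* (−0.0632 in the LKO cohort, 0.641 in the HKO cohort), 0.273 for *Dnajb1* (0.249 and 0.754) and 0.554 for *Hspa1b* (0.634 and 0.292). These values are descriptions of 14 libraries that share a scaling, with no test. The LKO cohort supplied most of the spread, since the mean deviation of the 5 genes ran from −0.922 in control replicate 4 to 0.711 in control replicate 3 there and from −0.131 to 0.145 in the HKO cohort.

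**Figure D2:**
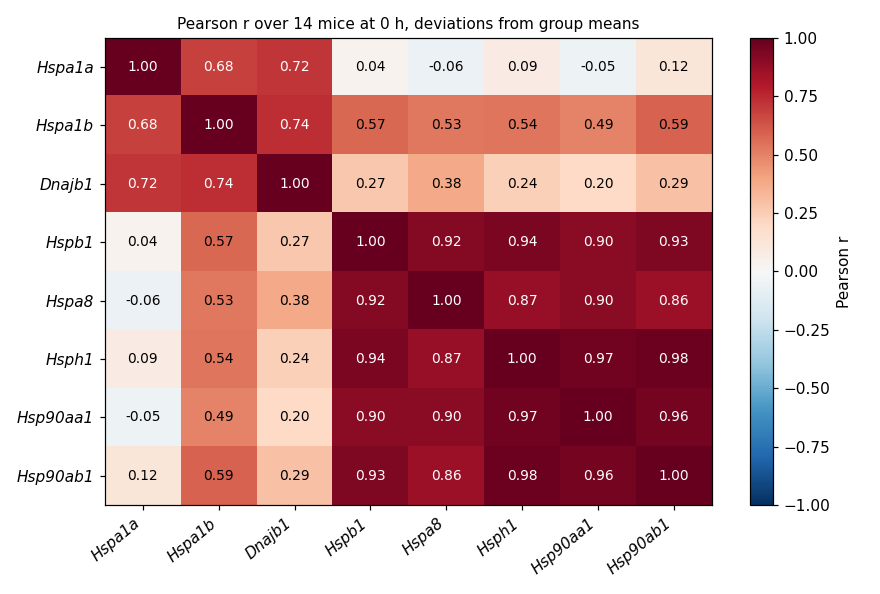
Pearson r between the 8 genes over 14 single mice at 0 h, computed on log2 CPM after the mean of each group was subtracted, with red for positive and blue for negative values. The 5 genes at the lower right correlate at 0.86 to 0.98 with each other, and *Hspa1a* correlates at −0.06 to 0.12 with them over all 14 mice.

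Some other measures moved with this spread. *Cirbp* and *Rbm3*, which encode RNA-binding proteins that cells make more of in the cold, had summed levels of 30.4 CPM in LKO-cohort control replicate 3, where the mean deviation of the 5 genes from their group was highest, and of 59.1 and 69.5 CPM in LKO-cohort control replicate 4 and LKO replicate 2, where it was lowest. Over the 14 mice, r between the mean deviation of these 2 genes and that of the 5 heat shock genes was −0.883 (rho = −0.802, −0.758 without the 2 farthest mice, −0.942 in the 8 mice of the LKO cohort and −0.373 in the 6 of the HKO cohort). Control replicate 3 also had the fewest reads on genes (12665686) and the largest share of unmapped reads (20.6%). That share was 12.0% in control replicate 2 and 13.5% in LKO replicate 1, with the next highest deviations (0.506 and 0.386). It was 4.11% in control replicate 4 and 4.37% in LKO replicate 2. In the other LKO-cohort mice, with deviations of −0.295 to 0.213, it was 5.23% to 7.2%. The pools after APAP had 2.63% to 5.84%. The part of these measures in the spread was not tested.

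At 12 h, the 2 pools together showed higher levels than the 8 mice at 0 h for 4 of the 8 genes, and no member fell. On the log2 scale, with genotype as a factor in edgeR, *Hspa1a* rose by 2.91 (standard error 0.39, adjusted p = 5.42e-05), *Dnajb1* by 2.28 (0.28, 3.09e-05), *Hspa1b* by 1.90 (0.52, 0.00931) and *Hspb1* by 1.70 (0.46, 0.00876). In that comparison 31.5% of 13328 genes were called (17% higher, 14.5% lower), so calls were common in the background of these 4 of 8. The median log2 fold change was 1.12 over the 8 genes and −0.0037 over all genes tested. *Hspa8* (0.54, adjusted p = 0.225), *Hsp90aa1* (0.50, 0.394), *Hsp90ab1* (0.21, 0.533) and *Hsph1* (0.18, 0.81) did not pass the test. The 5 comparisons with 0 h share the same 8 mice, and the test treats a pool of 3 mice as 1 sample.

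**Figure D3:**
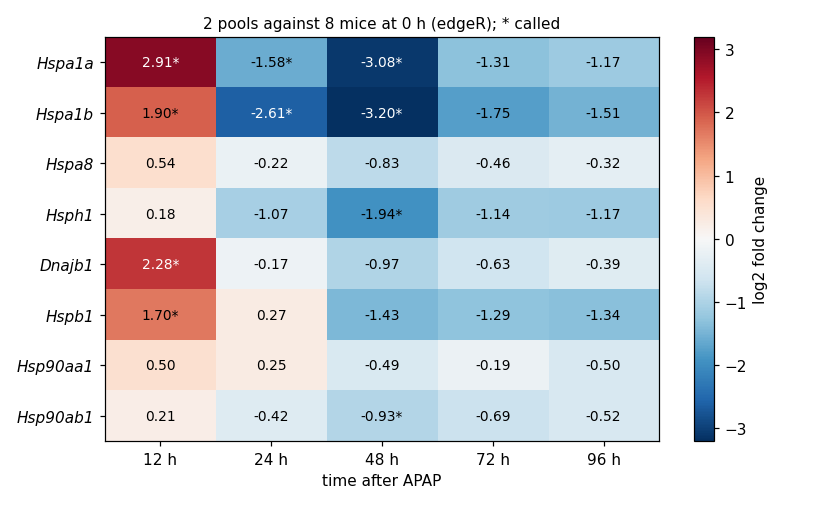
Log2 fold change of each gene at each time after APAP against 0 h, from edgeR fits of 2 pools (1 LKO, 1 control) against 8 single mice, with red for higher, blue for lower and an asterisk for genes called. Calls at 12 h are all increases, from 1.70 to 2.91, and calls at 24 and 48 h are all decreases.

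The pools at 12 h differed between the 2 genotypes. *Hspa1a* had 13.6, 15.8, 6.57 and 14.0 CPM in the control mice at 0 h and 38.5 CPM in the control pool at 12 h. In LKO livers it had 7.37, 6.91, 19.7 and 12.4 CPM at 0 h and 147 CPM at 12 h. Both pools lay above all of their own mice at 0 h, and the LKO pool was 3.81-fold above the control pool. *Dnajb1* showed the same order, with 67.9, 52.3, 45.4 and 47.6 CPM in control mice and 131 CPM in their pool, and 35.3, 29.3, 59.3 and 67.0 CPM in LKO mice and 346 CPM in theirs. Its LKO pool was 2.64-fold above the control pool.

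*Hspa1b* had 76.95, 149, 103 and 62.0 CPM in control mice at 0 h and 102 CPM in the control pool at 12 h, inside the range of the mice. In LKO livers it went from 33.7, 27.6, 90.3 and 97.2 CPM to 485 CPM. *Hspb1* (chromosome 5, 135887919 to 135889563) behaved in the same way, with 43.6, 95.8, 96.3 and 29.0 CPM in control mice and 74.2 CPM in their pool, against 49.4, 22.4, 44.4 and 54.8 CPM in LKO mice and 249 CPM in theirs. For both genes the LKO pool lay above all 8 mice and the control pool did not. Without the LKO pool the log2 fold change at 12 h was 0.29 for *Hspa1b* (adjusted p = 0.762 by edgeR) and 0.28 for *Hspb1* (adjusted p = 0.741). *Hspa1a* (1.72, adjusted p = 0.0137) and *Dnajb1* (1.34, adjusted p = 0.00612) were still called without it.

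*Hsph1* went in opposite directions. The control pool at 12 h had 89.6 CPM, below the 120 to 367 CPM of its 4 mice, and the LKO pool had 334 CPM, above the 77.1 to 214 CPM of its mice. Each pool lay inside the range of the mice of the other genotype. The fit over both genotypes therefore gave a change near 0 (0.18), and −1.30 (adjusted p = 0.138) without the LKO pool. With 1 pool per genotype, this difference has no replicate check.

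All 8 genes of the LKO pool at 12 h lay above all 4 LKO mice at 0 h, as did 31.2% of 13328 genes, and 2 of 8 in the control pool lay above all 4 control mice (34.6% of genes). For *Hspa8*, *Hsph1*, *Hsp90aa1* and *Hsp90ab1*, however, the LKO pool lay inside the range of the 4 control mice at 0 h. Set directly against the control pool, the LKO pool was at least 2-fold higher for 5 of the 8 genes, as were 8.82% of genes. These were *Hspa1b* (4.77-fold), *Hspa1a* (3.81-fold), *Hsph1* (3.72-fold), *Hspb1* (3.36-fold) and *Dnajb1* (2.64-fold). The constitutive members and inducible HSP90 stayed close, with ratios of 1.17 for *Hsp90ab1*, 1.03 for *Hspa8* and 0.992 for *Hsp90aa1*, and the last turned to a difference above 0 (0.13 on the log2 scale) when libraries were scaled by size alone, a scaling that moved the median of all genes from −0.0085 to 0.12. The 6 hepatocyte markers summed to 61473 CPM in the LKO pool and 100548 CPM in the control pool, against 45718 to 85810 CPM in LKO mice and 67164 to 111655 CPM in control mice at 0 h. Neutrophil markers summed to 16.7 CPM in the LKO pool and 14.4 CPM in the control pool, macrophage markers to 129 and 151 CPM, and stellate cell markers to 153 and 226 CPM. Cholangiocyte markers summed to 35.8 and 168 CPM, with *Krt7* at 0 in the LKO pool. Markers within a list did not move together. Against 0 h, *Sox9* rose by 3.58 on the log2 scale while *Krt19*, *Krt7*, *Epcam* and *Spp1* were not called. Of the macrophage markers, *Cd68* rose by 2.04 and *Clec4f* fell by 1.07. The part of these markers in the differences was not tested.

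**Figure D4:**
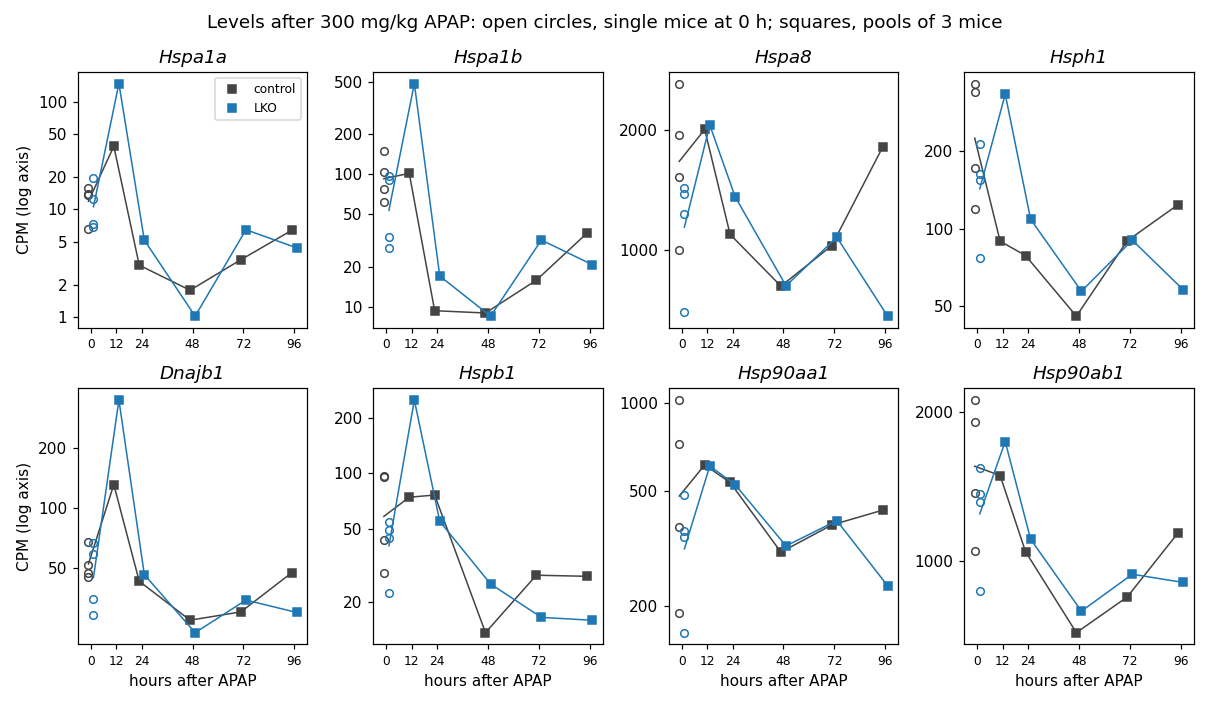
Level of each gene in CPM (log axes) against hours after 300 mg/kg APAP in control (gray) and LKO (blue) livers; open circles are single mice at 0 h, squares are pools of 3 mice, and lines start at the geometric mean of the mice. The LKO pool at 12 h is the highest library for *Hspa1a*, *Hspa1b*, *Dnajb1* and *Hspb1*, at 147, 485, 346 and 249 CPM, and all 8 LKO pools lie below the control pools at 96 h.

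The promoters of 5 members are shown because heat shock elements, which HSF1 binds, are built from the unit GAA and its reverse complement TTC. The source held only these 5 of the 8 members, which are also the 5 that were at least 2-fold higher in the LKO pool at 12 h. Members that were not 2-fold higher there thus have no sequence for comparison. The sequences are from that source, the RefSeq promoter table for GRCm38.p6. They are written 5′ to 3′ on the strand of the gene, and all but that of *Hsph1* end at the base before the start that this table gives, which for *Dnajb1* is not the start of the annotation used for gene positions. The capitals mark pairs of units (GAANNTTC or TTCNNGAA, each its own reverse complement, so both strands are covered). For *Hsph1* 30 bases around the match are printed, since another annotated transcript covers that stretch, and for *Hsph1* and *Dnajb1* the table lists 2 starts, of which the window before the upstream one is used.
Hspa1a, chr17:34972157-34972306, minus strand: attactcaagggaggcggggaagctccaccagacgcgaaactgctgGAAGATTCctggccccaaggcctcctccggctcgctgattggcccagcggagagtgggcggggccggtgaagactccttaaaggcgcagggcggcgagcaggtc
Hspa1b, chr17:34959239-34959388, minus strand: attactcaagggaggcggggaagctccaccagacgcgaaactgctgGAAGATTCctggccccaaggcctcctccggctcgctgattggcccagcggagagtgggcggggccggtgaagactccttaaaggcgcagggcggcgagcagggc
Hspb1, chr5:135887769-135887918, plus strand: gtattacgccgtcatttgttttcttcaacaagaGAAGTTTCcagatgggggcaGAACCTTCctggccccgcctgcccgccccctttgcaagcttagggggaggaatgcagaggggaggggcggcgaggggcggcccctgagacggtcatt
Hsph1, chr5:149636351-149636380, minus strand: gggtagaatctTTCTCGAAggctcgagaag
Dnajb1, chr8:83608025-83608174, plus strand: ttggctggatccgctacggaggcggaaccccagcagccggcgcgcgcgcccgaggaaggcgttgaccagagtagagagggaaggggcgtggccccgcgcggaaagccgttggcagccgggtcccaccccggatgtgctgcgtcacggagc

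In the 250 bases before the start, *Hspa1a* and *Hspa1b* each held 1 such pair, GAAGATTC, that begins 104 bases upstream. *Hspb1* held 2, GAAGTTTC at 117 bases and GAACCTTC at 97 bases upstream, *Hsph1* held TTCTCGAA at 33 bases upstream, and no pair was found in these letters for *Dnajb1*. A pair was present in 12.8% and at least 2 pairs in 1.46% of the 32851 promoters of the table over the same length. One more unit at the same spacing was found in 0.466% of all promoters and in none of these 5. The *Hspa1a* and *Hspa1b* promoters differ at 3 of 250 bases. A match describes letters only and is not shown to be a site of binding in these livers.

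The constitutive members and *Hsp90aa1* did not pass the test at 12 h. *Hspa8* (chromosome 9, 40800984 to 40810087) had 1003 to 2624 CPM in the 4 control mice and 2011 CPM in their pool, and 697 to 1429 CPM in LKO mice and 2062 CPM in their pool. *Hsp90ab1* (chromosome 17, 45567775 to 45573271) had 1047 to 2116 CPM in control mice and 1488 CPM in their pool, and 869 to 1538 CPM in LKO mice and 1743 CPM in theirs. *Hsp90aa1* stood at 613 CPM in the control pool and 608 CPM in the LKO pool. All 3 LKO pools were above their own 4 mice and all 3 control pools were inside the range of theirs. The 3 LKO values were also inside the range of the control mice (189 to 1028 CPM for *Hsp90aa1*), since the LKO mice were lower on average at 0 h.

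By 24 h the HSP70 genes were below their levels at 0 h. *Hspa1b* fell by 2.61 on the log2 scale (standard error 0.67, adjusted p = 0.00836) and *Hspa1a* fell by 1.58 (0.51, 0.0282) by edgeR, where 26.1% of genes were called (14.1% higher and 12.1% lower). *Hspa1b* had 9.33 CPM in the control pool and 17.0 CPM in the LKO pool, both below all 8 mice at 0 h. *Hspa1a* had 3.03 and 5.18 CPM. With either pool at 24 h left out, 0 of 8 were called, with log2 fold changes of −2.18 (without the control pool) and −3.13 (without the LKO pool) for *Hspa1b* and of −1.30 and −1.91 for *Hspa1a*. The other 6 genes ranged from −1.07 for *Hsph1* (adjusted p = 0.142) to 0.27 for *Hspb1* (adjusted p = 0.709). Beside these values, 3 of the 4 neutrophil markers tested rose and 6 of 12 time-of-day genes fell at 24 h. Of 6 hepatocyte markers 1 rose and 2 fell, and so it was for 6 macrophage and 5 endothelial markers. Of 5 stellate cell markers 1 rose and 1 fell, 1 of 5 cholangiocyte markers rose, and the red blood cell marker *Alas2* fell. The part of all these genes in the changes of the chaperones was not tested.

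At 48 h 4 of the 8 genes were below 0 h. *Hspa1b* fell by 3.20 (standard error 0.70, adjusted p = 0.00511), *Hspa1a* fell by 3.08 (0.59, 0.00196), *Hsph1* fell by 1.94 (0.57, 0.0268) and *Hsp90ab1* fell by 0.93 (0.27, 0.0271) by edgeR, where 16.7% of genes were called and 6.71% were called lower. *Hspa1a* was at 1.77 CPM (35 reads) in the control pool and 1.02 CPM (18 reads) in the LKO pool. *Hsph1* was at 45.8 and 57.3 CPM, and *Hsp90ab1* at 714 and 790 CPM, all below the lowest mouse of their genotype at 0 h. *Dnajb1* (−0.97, adjusted p = 0.0576), *Hspb1* (−1.43, 0.0791), *Hspa8* (−0.83, 0.128) and *Hsp90aa1* (−0.49, 0.506) did not pass the test. Of the 8 genes, 7 in the control pool and 5 in the LKO pool lay below all 4 of their mice, as did 32.3% and 27.3% of genes. Only *Hspa1a* was called without the control pool at 48 h, and *Hspa1a* and *Hspa1b* without the LKO pool. The log2 fold changes without the control and without the LKO pool were −1.67 and −2.23 for *Hsph1* and −0.78 and −1.08 for *Hsp90ab1*, and that of *Hspa1b* ran from −3.35 to −2.985 over all alternatives. At 48 h 2 of the 4 neutrophil markers rose and 4 of 12 time-of-day genes fell. Of 6 macrophage markers 2 rose, of 5 endothelial markers 1 rose and 2 fell, and of 5 stellate cell markers 1 rose. Of 5 cholangiocyte markers 2 rose and 1 fell, and of 3 lymphocyte markers 1 rose. Among hepatocyte markers 1 of 6 fell, as did the red blood cell marker *Alas2*. The part of all these genes was not tested.

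At 72 h none of the 8 was called by edgeR, where 16.8% of genes were. Of the 8, 5 had an unadjusted p under 0.05, all lower than at 0 h, as had 4331 of all 13328 genes in either direction. DESeq2 called 3 members as lower (*Hspa1a*, *Hspa1b* and *Hsp90ab1*) and 2519 of all genes. edgeR called 1 without LKO replicate 1 and 2 without LKO replicate 2 at 0 h. *Hspa1b* was at 15.8 CPM in the control pool and 31.9 CPM in the LKO pool (log2 fold change −1.75, adjusted p = 0.0617). At 96 h none was called by edgeR or DESeq2 (edgeR called 0.465% of genes), and 4 had an unadjusted p under 0.05, with log2 fold changes of −1.17 to −1.51, as had 2112 of 13328 genes.

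At 96 h all 8 genes were lower in the LKO pool than in the control pool, by 0.33 for *Hsp90ab1* to 1.41 for *Hspa8* on the log2 scale. *Hspa8* was at 682 CPM in the LKO pool, below its 4 mice at 0 h, and at 1813 CPM in the control pool, inside the range of its mice. *Hsph1* was at 58.1 and 124 CPM and *Hsp90aa1* at 234 and 428 CPM. Of all genes, 4.16% were at least 2-fold lower in the LKO pool at 96 h, as were 2 of the 8 members (*Hspa8* and *Hsph1*). Scaled by library size alone, the 8 differences were still below 0 while the median of all genes moved from 0.01 to 0.22. The group means at 0 h were also lower in LKO for all 8, by 0.17 for *Hspa1a* to 0.79 for *Hspa1b*, and for *Hspa1b* the difference at 96 h was of the same size (0.79). The pools at 96 h have no replicate check.

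**Figure D5:**
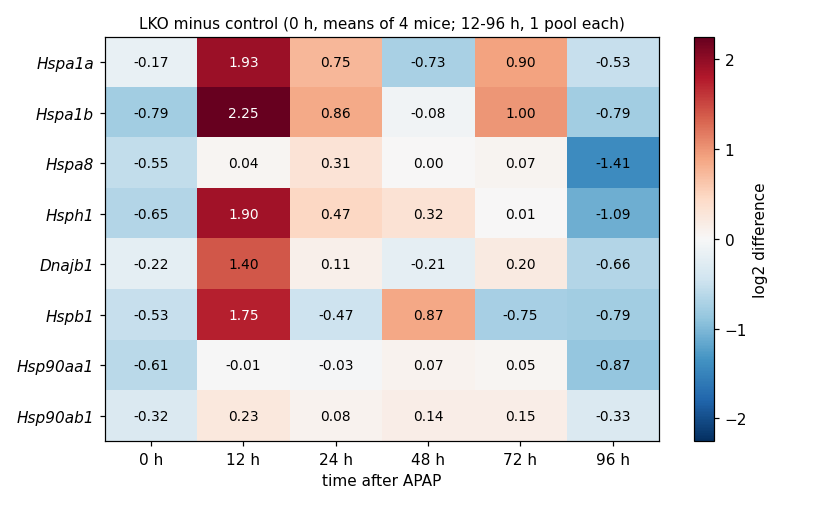
LKO minus control in log2 CPM for each gene, as the difference of the means of 4 mice at 0 h and of single pools from 12 to 96 h, with red for higher and blue for lower in LKO. At 12 h 5 genes exceed 1, and all 8 are below 0 both at 0 h and at 96 h.

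Across the 5 times together, with the time point as a factor, LKO and control pools did not differ by the test for any member. None was called by edgeR or DESeq2 or had an unadjusted p under 0.05, where edgeR called 0.579% of 12782 genes, 2284 genes had an unadjusted p under 0.05 and DESeq2 called 606. The log2 fold changes ran from −0.21 for *Hspa8* (standard error 0.25, adjusted p = 0.697) to 0.64 for *Hspa1b* (0.36, 0.371). Without the pools at 12 h the value was 0.24 for *Hspa1b*, and it was 0.12 for *Hspa1a*, from 0.57 with all pools. The change of the genotype difference from 0 h to 12 to 96 h was above 0 for all 8, from 0.31 for *Dnajb1* to 1.31 for *Hspa1b* (standard error 0.62, adjusted p = 0.522 by edgeR). The genotype difference itself was below 0 for all 8 at 0 h, and over 12 to 96 h it stayed below 0 for *Hspa8* and *Hsp90aa1* (−0.18). The median of the change was 0.65 over the 8 genes and −0.014 over all genes tested. None of the 8 had an unadjusted p under 0.05 there, edgeR called 0 of 13328 genes (0%, with 1285 at an unadjusted p under 0.05), and DESeq2 called 39 genes and no member.

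The genes that work with these chaperones did not move as one group at 12 h. Among HSF1 and its regulators, 0 of 3 rose and 1 fell by edgeR, and that was *Hsbp1* (−0.69, standard error 0.15, adjusted p = 0.0025), whose product binds and restrains HSF1. *Hsf1* itself had a log2 fold change of 0.27 (adjusted p = 0.209). Of 24 co-chaperones, 4 rose and 5 fell, against 17% and 14.5% of all genes. *Bag3*, a partner of HSP70 and a heat shock target itself, rose most (1.69, standard error 0.25, adjusted p = 0.000131), from 41.9 to 82.6 CPM in the 8 mice at 0 h to 130 CPM in the control pool and 239 CPM in the LKO pool. *Unc45a*, a co-chaperone of HSP90, rose as well. Among those that fell were *Fkbp4* (−1.41), which links HSP90 to steroid receptors, and *Stip1* (−1.10), which joins HSP70 to HSP90. Both pools lay below all 8 mice for *Fkbp4*, at 86.9 and 104 CPM against 175 to 371 CPM.

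Of 8 other cytosolic HSP70, HSP110 and small heat shock proteins, 1 rose and 2 fell at 12 h by edgeR. *Hspb8*, the small heat shock protein that works with BAG3, rose by 1.40 (standard error 0.22, adjusted p = 0.000211), to 682 CPM in the control pool and 665 CPM in the LKO pool from 176 to 403 CPM at 0 h. *Cryab* fell by 1.64 and *Hspb6* fell by 0.73. Of 8 subunits of the cytosolic chaperonin TRiC, which folds actin and tubulin, 1 rose at 12 h (*Cct2*, 0.76) and 6 rose at 24 h, when 14.1% of all genes rose, with *Cct2* (0.85), *Cct3* (0.80), *Cct6a* (0.76) and *Cct8* (0.74) highest. Of 7 organelle counterparts, only *Hspd1*, the mitochondrial HSP60, rose at 12 h (0.64, adjusted p = 0.0201), and *Trap1* and *Hyou1* fell at 48 h. Both cold-inducible genes rose at 12 h, *Rbm3* by 2.05 and *Cirbp* by 1.36, with the control pool (195 CPM in sum) above the LKO pool (126 CPM). Of the 4 neutrophil markers tested 3 rose at 12 h, and of 12 time-of-day genes 2 rose and 3 fell. Of 6 macrophage markers 1 rose and 1 fell, of 5 endothelial markers 1 rose and 1 fell, and 1 of 5 cholangiocyte markers rose. Of 5 stellate cell markers 2 fell, as did 1 of 6 hepatocyte markers and the red blood cell marker *Alas2*. The part of all these genes in the changes of the chaperones was not tested. Of 24 co-chaperones 1 rose and none fell at 24 h, against 14.1% and 12.1% of all genes. At 48 h 1 of the 24 rose and 3 fell, against 1336 and 894 of 13328 genes. *Hsf1* fell by 0.68 at 72 h (standard error 0.18, adjusted p = 0.0128 by edgeR). In the comparisons of genotypes at 0 h and over 12 to 96 h, no gene of these chaperone lists was called by edgeR.

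The genes with patterns most like the 8 members were found from log2 CPM over the 18 LKO-cohort libraries, by Pearson r with the mean standardized level of the members among 13328 genes. The 10 highest outside the members were *Bop1* (r = 0.864), *Ubqln1* (0.852), *Hspd1* (0.847), *Vcp* (0.847), *Nploc4* (0.843), *Slc25a51* (0.842), *Zc3h12a* (0.83), *Plk3* (0.83), *Kdm5c* (0.827) and *Ttll8* (0.819). The libraries share the scaling and the time points, and 1 of them, the LKO pool at 12 h, weighs on the ranking. Without it, an alternative chosen after the data were seen, the 10 values lay between 0.751 and 0.848. Their ranks, counted there with the members included, ran from 8 for *Bop1* to 59 for *Ttll8*. At 12 h *Ttll8* was higher in the LKO pool by 2.58 on the log2 scale and *Bop1* by 0.05.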

How the data were processed

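Polyadenylated RNA of whole mouse liver was sequenced in 24 libraries. Reads were trimmed (Trimmomatic) and mapped by the authors to the mm10 genome (STAR), and the deposited values are raw counts of uniquely mapped reads per gene. The column that disregards strand was used, and rows that name no gene (18.7% to 39.93% of each library's total in that column) were left out. The 8 members and the gene lists were chosen with earlier results of these data known.

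Groups came from the labels. Counts were tested with edgeR 4.0.16 (quasi-likelihood, TMM scaling, filterByExpr) in R 4.3.3, p-values were adjusted by Benjamini-Hochberg over all genes tested, and a call required an adjusted p below 0.05 and a change of 1.5-fold or more. Genotypes were compared at 0 h within each cohort, between cohorts, over the pools with time as a factor, and as an interaction. Each time was compared with 0 h over 18 libraries with genotype as a factor. CPM values use TMM scaling over all 24 libraries, and log2 CPM adds a prior count of 2. The fits were tested on simulated data. From each gene list, up to 4 of the called genes with the largest change were named. Alternatives were DESeq2 1.42.0, other scalings and filters, the stranded column, a replicate block and leaving out each library. The limit of 3 counts covers counting error only. No 2 libraries held identical counts.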

Additional observations from a re-analysis of the deposited data

Results flagged for a closer look

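*Hsph1* at 12 h after APAP was flagged because the genotypes moved to opposite sides of their mice at 0 h. The control pool had 89.6 CPM and lay below all 4 control mice, and the LKO pool had 334 CPM and lay above all 4 LKO mice. Each lay inside the range of the other genotype's mice (120 to 367 CPM in controls, 77.1 to 214 CPM in LKO). There was 1 pool per genotype, so the difference was not tested. Among 16 checks for a mouse far from the other 3 of its group (8 genes in 2 groups of 4), of which chance flags about 1 in 20, none stood out, and groups of 3 were not checked.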

How the results depend on the processing

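Of the values for the 8 genes and their counts under other settings, 1568 kept their direction and side of the threshold, 26 turned direction, 13 newly passed the threshold, 13 no longer passed it and 3 counts moved by over 1.5 times. DESeq2 called 3 members at 72 h in place of 0. Leaving out each library in turn gave 0 to 2 members called at 72 h, 0 to 2 at 24 h, 1 to 6 at 48 h and 2 to 4 at 12 h, and apart from the smaller number of libraries the cause was not tested. At 48 h the lowest counts came without a 48 h pool and the highest without LKO replicate 2.

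No result whose direction turned had been called. The log2 fold change of *Hspa1a* at 0 h was 0.019 in LKO with library size alone, and −0.31 in HKO when its counts were summed with those of *Hspa1b*. With single libraries left out, LKO against control at 0 h ranged from −0.49 to 0.072 for *Hspa1a* and −0.36 to 0.013 for *Dnajb1*, and HKO against control from −0.36 to 0.40 for *Hspa1a* and −0.038 to 0.27 for *Hspb1*. The LKO minus HKO effect ranged from −0.57 to 0.25 for *Hspa1a* and −0.56 to 0.26 for *Hspa1b*. With both pools of a time left out, LKO against control over 12 to 96 h ranged from −0.33 to 0.089 for *Hspa8*, −0.077 to 0.64 for *Hsph1*, −0.15 to 0.36 for *Dnajb1*, −0.31 to 0.33 for *Hspb1* and −0.22 to 0.0050 for *Hsp90aa1*. *Hspa1a* and *Hspa1b* kept their direction there, at 0.12 to 0.89 and 0.24 to 1.02. A fit that ignored the time points put them at 1.62 and 1.71. Against 0 h, the ranges were −1.30 to 0.99 for *Hsph1* at 12 h, −0.64 to 0.14 for *Hspa8* at 24 h, −0.46 to 0.059 for *Hsp90aa1* at 72 h and −1.004 to 0.17 for *Hspa8* at 96 h.

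Same-numbered mice did not deviate together (correlations of −0.379 to 0.223 in the LKO cohort and −0.0307 to 0.198 in the HKO cohort), so the numbers were not taken as pairs. With the replicate number as a block, 0 members were called in each comparison at 0 h, and 263 in place of 119 genes were called in HKO against control. DESeq2 called 331 genes there, and 606 in place of 74 over 12 to 96 h. The counts of all genes called also moved when libraries were left out, to 54 to 297 in HKO against control (1 mouse) and to 9 to 177 over 12 to 96 h (both pools of a time).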
